A study of Mus musculus with 12 samples.

Results

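Lipid droplet proteins and the receptor PPARγ were followed at the RNA level in mouse hepatocytes, as 10 named genes among the 26748 Ensembl gene identifiers of the deposited table. The genes are Pparg, the 3 CIDE genes Cidea, Cideb and Cidec, the 4 perilipins Plin2, Plin3, Plin4 and Plin5, the triglyceride lipase gene Pnpla2 and the gene of its inhibitor, G0s2. They were chosen by symbol, and all 10 matched 1 identifier each. In the mouse genome (GRCm38) Pparg and Cidec both lie on chromosome 6, and Plin3, Plin4 and Plin5 lie together on chromosome 17. The study crossed genotype with drug in male C57bl/6 mice: hepatic RXRα knockout (LKO) and floxed (Flox) mice, each with bexarotene, an agonist of retinoid X receptors, at 100 mg/kg per day for 5 days, or as controls. The groups are knockout bexarotene, knockout control, floxed bexarotene and floxed control, with 3 libraries each and 12 in all. The labels give neither the Cre driver nor the age of the mice nor what the control mice received, and whether each library is a separate animal is not stated. A p-value therefore sets a difference against the scatter of these samples alone, and that scatter may be technical. The comparisons share samples, each group serving in 2 of the 4 comparisons between groups. Libraries are called by the number in their column name, because these numbers differ from those in the sample titles.

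Fat in hepatocytes is stored as triglyceride in lipid droplets, each wrapped in a single layer of phospholipid that carries proteins of its own. Perilipins coat the droplet and control the access of lipases, CIDE proteins sit where droplets touch and pass lipid from small droplets to larger ones, and the lipase encoded by Pnpla2 starts triglyceride breakdown unless it is bound by G0s2. PPARγ is a nuclear receptor that binds DNA as a pair with RXR. It is best known for driving fat storage in adipocytes, and in fatty liver it is known to switch on Cidec and other droplet genes. Several droplet genes, Plin2 and Cidec among them, are also known targets of PPARα, the main PPAR of hepatocytes.

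The libraries carried the labels' cell type and genotype. The 10 hepatocyte markers summed to 73598 to 106161 TPM (a transcript level that the authors scaled for transcript length and library total) per library. Rxra stood at 26.1 to 33.1 TPM in the 6 knockout libraries and 79.5 to 86.1 TPM in the 6 floxed libraries. Depth is unknown, because TPM keeps no read totals. Of the 12 within-group pairs, 4 showed a spread in excess of counting noise of only 0.0394 to 0.0748 on the log2 scale, against 0.152 to 0.470 for the other 8. They were floxed controls 1 and 3 and all pairs among the treated knockout libraries, so each of these sets was averaged and counted as 1 sample. Tests therefore rest on n = 1 treated knockout sample, n = 3 knockout controls, n = 3 treated floxed samples and n = 2 floxed controls, and each mean ± SD below is over these samples. The lone treated knockout sample has no SD, and its tests borrow the scatter of the remaining groups.

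Of the 10 genes, 9 reached at least 1 TPM in at least 3 libraries and were tested with limma on log2(TPM + 1) among 11018 genes. Rises and falls are called at a Benjamini-Hochberg adjusted p under 0.05 over all tested genes, and each log2 difference is given ± its SE. Cidea was not tested. It was listed at 0 TPM in 11 libraries and at 0.06 TPM in floxed control 3. Cidec passed the filter only through the treated floxed libraries, so it had to differ there, and its p-values are also given from a fit with no filter on low values. Pparg and Plin4 passed with 6 and 3 floxed libraries and with 2 knockout libraries each, fewer than the filter asks for.

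The upstream DNA of the 5 genes that the results turn on is printed here because PPARs with RXR bind a direct repeat, in which the hexamer AGGTCA is followed by any base (N) and by AGGTCA again. Each line gives the 250 bases before the most upstream start that RefSeq lists for the gene (GRCm38.p6), 5′ to 3′ on the strand of the gene. Capitals mark places with at most 3 mismatches to this repeat outside N, or the exact hexamer, on either strand, so that a hexamer on the opposite strand reads TGACCT.
Cidec, chr6:113435761-113436010, minus strand: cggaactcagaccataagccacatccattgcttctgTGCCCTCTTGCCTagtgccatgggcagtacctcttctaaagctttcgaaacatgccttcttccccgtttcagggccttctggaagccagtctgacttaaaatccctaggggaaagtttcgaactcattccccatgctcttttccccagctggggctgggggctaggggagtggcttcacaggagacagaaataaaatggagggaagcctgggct
Plin2, chr4:86670060-86670309, minus strand: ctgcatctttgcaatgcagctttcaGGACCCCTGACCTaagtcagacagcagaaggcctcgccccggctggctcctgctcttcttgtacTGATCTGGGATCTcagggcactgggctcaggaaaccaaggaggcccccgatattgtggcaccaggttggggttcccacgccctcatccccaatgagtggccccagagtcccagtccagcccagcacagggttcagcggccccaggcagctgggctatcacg
Pnpla2, chr7:141454938-141455187, plus strand: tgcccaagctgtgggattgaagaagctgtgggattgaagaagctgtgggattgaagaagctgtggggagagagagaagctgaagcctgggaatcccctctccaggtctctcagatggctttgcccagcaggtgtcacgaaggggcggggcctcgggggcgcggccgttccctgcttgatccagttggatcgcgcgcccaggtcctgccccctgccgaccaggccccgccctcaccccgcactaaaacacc
Plin5, chr17:56117549-56117798, minus strand: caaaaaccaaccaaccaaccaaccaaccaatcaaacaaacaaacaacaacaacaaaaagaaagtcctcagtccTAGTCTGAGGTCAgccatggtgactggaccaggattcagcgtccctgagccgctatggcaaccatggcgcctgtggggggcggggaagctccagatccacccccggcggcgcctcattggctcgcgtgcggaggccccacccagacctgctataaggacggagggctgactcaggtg
Pparg, chr6:115360894-115361143, plus strand: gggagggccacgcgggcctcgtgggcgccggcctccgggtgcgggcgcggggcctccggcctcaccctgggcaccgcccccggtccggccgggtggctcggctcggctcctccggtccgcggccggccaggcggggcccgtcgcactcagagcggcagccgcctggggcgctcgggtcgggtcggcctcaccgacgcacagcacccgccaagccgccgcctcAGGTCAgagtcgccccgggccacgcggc
Cidec holds a repeat with 3 mismatches that begins 214 bases before the start. Plin2 holds repeats with 2 and 3 mismatches that begin 225 and 161 bases before it, and the first of these contains the exact hexamer. Plin5 holds a repeat with 3 mismatches at 177 bases, which also contains the hexamer, and Pparg holds the hexamer alone, at 28 bases. Pnpla2 holds neither. Of 13 windows of 300 bases (50 bases past the start included) for 9 of the genes, 7 held the repeat with at most 3 mismatches and 5 held the hexamer. Those 7 include windows of Cideb, Plin3 and G0s2, each with 3 mismatches at best. A second Cidec window held neither, with 4 mismatches at best. Among all 32851 windows of this length, 24.6% held the repeat at that limit, 3.86% held it with at most 2 mismatches and 16.3% held the hexamer. These are matches of letters in a short window and not measured binding.

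The genes spanned a wide range of levels. In floxed controls the order of mean TPM was Cideb (191 ± 3.91), Plin2 (152 ± 24.3), G0s2 (82.9 ± 33.5), Plin5 (53.8 ± 8.99), Pnpla2 (23.4 ± 0.990), Plin3 (8.93 ± 2.25), Pparg (3.07 ± 0.230), Plin4 (1.52 ± 0.668) and Cidec (0.617 ± 0.0530), each with SD and n = 2, and Cidea at the bottom. The libraries of G0s2 and Plin5 overlapped in that group, with 59.2 to 110 TPM for G0s2 and 47.5 to 61.4 TPM for Plin5. Those of the other neighbours in the order did not.

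**Figure D1:**
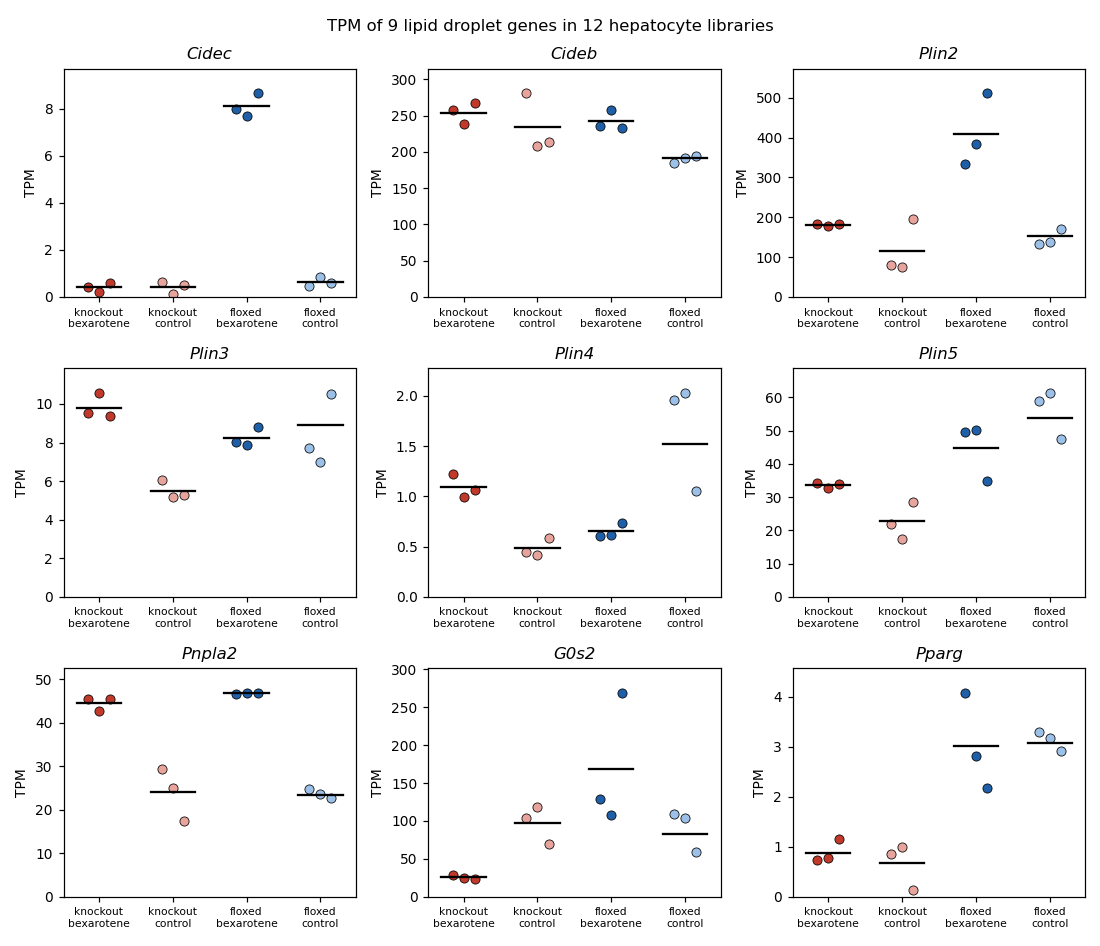
TPM of 9 genes (y axis, linear from 0) in the 12 libraries, by group on the x axis; each point is a library and each line is the mean over samples, with near-identical libraries counted as 1. Cidec stands at 7.69 to 8.67 TPM in treated floxed libraries and at no more than 0.83 TPM elsewhere, while Pparg stands at 0.14 to 1.15 TPM in knockout and 2.17 to 4.08 TPM in floxed libraries.

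Among the CIDE genes, Cidec rose with bexarotene in floxed mice and Cideb did not pass the test in any comparison. Cidec, which encodes the protein that fuses lipid into large droplets, was at 7.98, 7.69 and 8.67 TPM in treated floxed libraries 1, 3 and 4, against 0.48, 0.83 and 0.58 TPM in floxed controls 1, 3 and 4. It was at 0.42, 0.21 and 0.60 TPM in treated knockout libraries 1, 2 and 3, against 0.65, 0.10 and 0.51 TPM in knockout controls 1, 2 and 5. Every treated floxed library thus stood above every other library, and the knockout groups overlapped. The mean was 8.11 ± 0.503 TPM in treated floxed samples and 0.617 ± 0.0530 TPM in floxed controls, a ratio of 13.1, and the difference was 2.49 ± 0.20 on the log2(TPM + 1) scale (adjusted p = 0.000762, limma). With no filter on low values the adjusted p was 0.00823. Cidec was 1 of 2 of these genes called in floxed mice, where 2.12% of all tested genes were called. Having passed the filter only through the treated floxed libraries, Cidec was favoured in that count. In bulk RNA, fewer cells of a type and less RNA per cell cannot be told apart.

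In knockout mice the difference of Cidec with bexarotene was 0.01 ± 0.25 (adjusted p = 0.996). The effect in knockout mice minus that in floxed mice was -2.48 ± 0.32 (adjusted p = 0.0368, limma, and 0.01 with no filter), with 0.200% of genes called for this difference. It rests on 1 treated knockout sample. That call was lost without floxed controls 1 and 3, without floxed control 4 and without any single treated floxed sample, and also with a pseudocount of 0.1 or a filter of 5 TPM, with adjusted p from 0.000353 to 0.290 over the alternatives. Treated knockout samples were lower than treated floxed samples by -2.69 ± 0.25 (adjusted p = 0.00172, and 0.00173 with no filter), the 1 call among these genes in that comparison, where 1.93% of genes were called. Between the control groups Cidec differed by -0.21 ± 0.20 (adjusted p = 0.682).

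Adipocytes are rich in Cidec, and their markers were measured in the same libraries. Of the 8 listed adipocyte markers 4 were measured, and they summed to 5.15 to 7.31 TPM in treated knockout, 2.86 to 4.85 TPM in knockout control, 6.42 to 8.95 TPM in treated floxed and 5.75 to 6.49 TPM in floxed control libraries. Most of this was Lipe, the hormone-sensitive lipase gene, which was at 5.63, 6.00 and 7.33 TPM in treated floxed libraries. Lipe was at 5.11, 4.76 and 4.01 TPM in floxed controls, so the treated floxed libraries lay above them without overlap (0.42 ± 0.22, adjusted p = 0.421). Fabp4 was at 0.80, 0.16 and 0.93 TPM in treated floxed libraries, against 1.01, 0.87 and 1.37 TPM in floxed controls. Cfd was at 0.00, 0.26 and 0.69 TPM in treated floxed libraries, against 0.37, 0.47 and 0.31 TPM in floxed controls, and at 0 TPM in every knockout library. Adiponectin (Adipoq) was at 0 TPM in every treated floxed library. In treated knockout libraries 1, 2 and 3 Lipe was at 4.25, 3.41 and 3.55 TPM and Adipoq at 0.25, 0.00 and 0.00 TPM. Fabp4 was highest in these libraries, at 2.81, 1.74 and 2.36 TPM, against 0.61, 1.24 and 0.59 TPM in knockout controls. The part of adipocyte RNA in the difference of Cidec was not tested.

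Cideb, the CIDE gene of normal hepatocytes, which also serves the loading of lipoproteins, was the most abundant of the 10 genes in floxed controls. It was at 258, 238 and 267 TPM in treated knockout libraries, 281, 208 and 213 TPM in knockout controls, 236, 257 and 233 TPM in treated floxed libraries and 185, 192 and 194 TPM in floxed controls. The floxed controls were thus the lowest group and did not overlap the others. With bexarotene in floxed mice Cideb differed by 0.34 ± 0.15 (adjusted p = 0.332). Cidec made up 2.90% to 3.59% of the summed TPM of Cidec and Cideb in treated floxed libraries and 0.0480% to 0.431% in the other libraries. In GENCODE M21, 1136 of the 1488 exon bases of Cideb are shared with Nop9 on the opposite strand. It is not stated whether reads were counted by strand, so the split between these genes is uncertain. Nop9 was listed at no more than 7 TPM.

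Plin2 was the main perilipin transcript in every library and stood highest in treated floxed mice. It encodes the general droplet coat protein of liver, whose level follows stored fat. Plin2 was at 182, 179 and 182 TPM in treated knockout libraries, against 79.0, 73.7 and 195 TPM in knockout controls 1, 2 and 5. It was at 333, 385 and 512 TPM in treated floxed libraries, against 132, 138 and 169 TPM in floxed controls. The treated floxed libraries were above all others, and knockout control 5 stood above every treated knockout library. The difference with bexarotene in floxed mice was 1.41 ± 0.40, a ratio of means of 2.70, and it did not pass the test (unadjusted p = 0.00707, adjusted p = 0.134, limma). With 12 libraries as separate samples, where 9.64% of all genes were called, Plin2 was called (adjusted p = 0.0119), as it was with the floxed groups alone and without knockout control 5, and its adjusted p ran from 0.0114 to 0.478 over the alternatives. In knockout mice the difference was 0.79 ± 0.50 (adjusted p = 0.735), and the effects in knockout and floxed mice differed by -0.62 ± 0.64 (adjusted p = 0.818).

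Plin5, which ties droplets to mitochondria and is abundant in tissues that burn fat, fell in knockout controls. It was at 22.0, 17.4 and 28.7 TPM in knockout controls, against 59.0, 61.4 and 47.5 TPM in floxed controls. These groups did not overlap, and the difference was -1.23 ± 0.24 (adjusted p = 0.0305, limma). Plin5 and Pparg were the 2 called genes of this comparison, in which 3.76% of all genes were called. The call of Plin5 was lost without floxed controls 1 and 3, floxed control 4, floxed bexarotene 1 or 3, or knockout control 1 or 2, and also with no filter and with the compared groups alone, with adjusted p from 0.000891 to 0.220 over the alternatives. Under bexarotene Plin5 was at 34.1, 32.8 and 33.9 TPM in treated knockout libraries and 49.7, 50.1 and 34.9 TPM in treated floxed libraries, with floxed bexarotene 4 close to the knockout (difference -0.39 ± 0.30, adjusted p = 0.763). Bexarotene gave 0.58 ± 0.30 in knockout mice (adjusted p = 0.646) and -0.26 ± 0.24 in floxed mice (adjusted p = 0.670).

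Plin2 and Plin5 together set the make-up of the perilipin transcripts. The 4 perilipins summed to 223 to 227 TPM in treated knockout libraries, 96.7 to 229 TPM in knockout controls, 391 to 556 TPM in treated floxed libraries and 201 to 228 TPM in floxed controls. Plin2 took 80.1% to 80.5% of this sum in treated knockout libraries, 73.5% to 84.9% in knockout controls, 85.1% to 92.0% in treated floxed libraries and 65.8% to 74.2% in floxed controls. Plin5 took 14.7% to 15.1%, 12.5% to 20.4%, 6.28% to 12.7% and 20.8% to 29.5% in the same groups. The share of Plin2 in floxed mice was therefore higher in every treated library than in any control, with no test made on the share.

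Plin3 and Plin4 were minor transcripts. Plin3, which encodes a coat protein of small, newly formed droplets, was at 9.52, 10.6 and 9.35 TPM in treated knockout libraries, 6.07, 5.16 and 5.27 TPM in knockout controls, 8.05, 7.85 and 8.80 TPM in treated floxed libraries and 7.70, 6.97 and 10.52 TPM in floxed controls. The knockout controls were below all other libraries. Plin3 differed by 0.74 ± 0.21 with bexarotene in knockout mice (adjusted p = 0.274) and by -0.59 ± 0.17 between the control groups (adjusted p = 0.109). With 12 separate libraries both were called (adjusted p = 0.00608 and 0.0290), in comparisons where 1105 of 11018 genes and 11.8% of all genes were called. Over the alternatives these adjusted p ran from 0.00608 to 0.851 and from 0.0290 to 0.644. The effect of bexarotene on Plin3 in knockout minus that in floxed mice was 0.82 ± 0.27. That difference was called only with 12 separate libraries (adjusted p = 0.0446, limma), where 5.91% of all genes were.

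Plin4, a perilipin best known from white adipocytes, was at 1.22, 0.99 and 1.06 TPM in treated knockout libraries, against 0.45, 0.42 and 0.59 TPM in knockout controls. It was at 0.61, 0.62 and 0.73 TPM in treated floxed libraries, against 1.96, 2.03 and 1.05 TPM in floxed controls. Treated libraries thus stood above controls in the knockout and below controls in floxed mice, with no overlap in either. The differences were 0.49 ± 0.26 (adjusted p = 0.641) and -0.58 ± 0.20 (adjusted p = 0.218), and the effect in knockout minus that in floxed mice was 1.08 ± 0.33 (adjusted p = 0.362, limma). Between the controls Plin4 differed by -0.74 ± 0.20 without overlap (unadjusted p = 0.00626, adjusted p = 0.0982). None of these was called, and at such levels the precision is unknown. With 12 separate libraries the difference in floxed mice was called (adjusted p = 0.0224, limma), where 9.64% of all genes were. So were that between the effects (adjusted p = 0.0148, 5.91% of all genes) and that between the controls (adjusted p = 0.00628, 11.8%). Over the alternatives these adjusted p ran from 0.0224 to 0.698, from 0.0148 to 0.673 and from 0.00628 to 0.455.

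**Figure D2:**
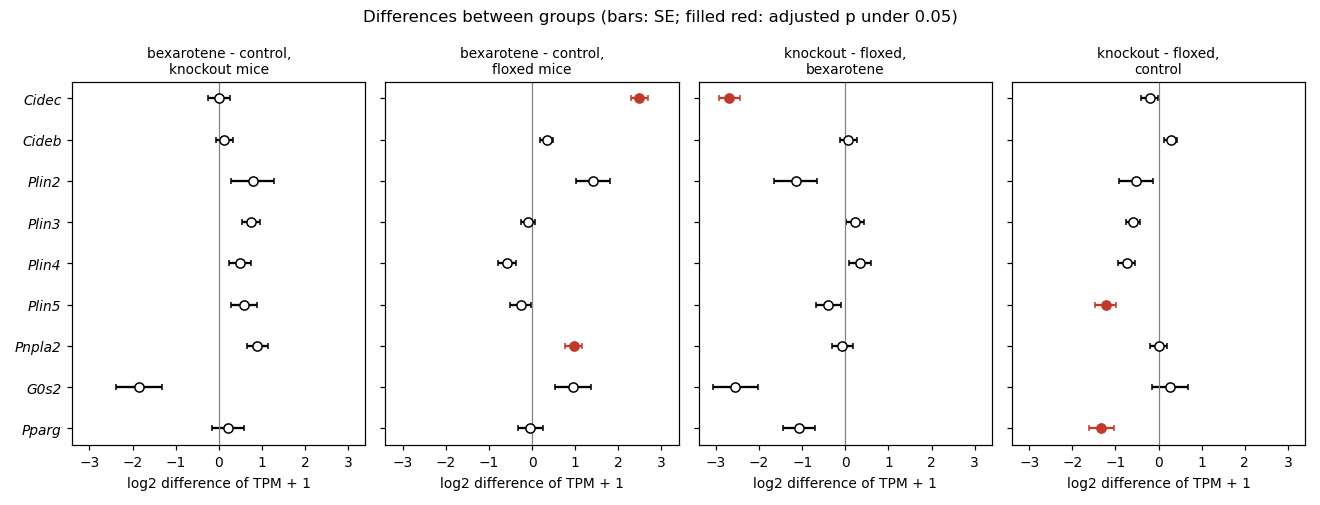
Differences between groups in log2(TPM + 1) (x axis) for 9 genes (y axis) in 4 comparisons, with the SE as bars; filled red points passed the limma test at an adjusted p under 0.05. Cidec and Pnpla2 are red and positive in floxed mice, no gene is red for bexarotene in knockout mice, Cidec is red and negative between the genotypes under bexarotene, and Plin5 and Pparg are red and negative between the controls.

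Pnpla2, which encodes the lipase of the first step of triglyceride breakdown (ATGL), rose with bexarotene in floxed mice and showed a difference of like size in the knockout. It was at 45.4, 42.7 and 45.5 TPM in treated knockout libraries, against 29.4, 25.0 and 17.5 TPM in knockout controls. It was at 46.6, 46.8 and 46.9 TPM in treated floxed libraries, against 24.7, 23.6 and 22.8 TPM in floxed controls. Treated libraries were above their controls in both genotypes with no overlap. The difference was 0.97 ± 0.20 in floxed mice, a ratio of 1.99 (adjusted p = 0.0487, limma), and 0.90 ± 0.25 in knockout mice, a ratio of 1.86 (unadjusted p = 0.0064, adjusted p = 0.242). The effects differed by -0.07 ± 0.31 (adjusted p = 0.966). The call in floxed mice was lost without floxed controls 1 and 3, floxed control 4, any single treated floxed sample or knockout control 2, and also with a pseudocount of 0.1, with no filter and with quantile normalization. Its adjusted p ran from 0.00202 to 0.354 over the alternatives. With 12 separate libraries both effects were called (adjusted p = 0.00202 in floxed and 0.00303 in knockout mice, limma). In that setting 9.64% of all genes were called in floxed mice and 1105 of 11018 genes in knockout mice. It counts near-identical libraries as separate samples, so the knockout call rests on 1 treated sample counted as 3.

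G0s2, whose product binds and blocks that lipase, was lowest in treated knockout mice. It was at 28.2, 25.3 and 23.6 TPM in treated knockout libraries, against 104, 119 and 69.6 TPM in knockout controls. It was at 129, 108 and 269 TPM in treated floxed libraries, against 110, 103 and 59.2 TPM in floxed controls. The treated knockout libraries were below all others, and the floxed groups overlapped. The difference with bexarotene was -1.85 ± 0.53 in knockout mice (adjusted p = 0.269) and 0.96 ± 0.42 in floxed mice (adjusted p = 0.325). Treated knockout and treated floxed samples differed by -2.55 ± 0.53 (adjusted p = 0.0573), and the effect in knockout minus that in floxed mice was -2.81 ± 0.67 (unadjusted p = 0.00297, adjusted p = 0.239). These did not pass the test with the treated knockout as 1 sample. Calls with 12 separate libraries count that sample as 3. That setting called 1105 of 11018 genes in knockout mice, 14.4% of all genes between genotypes under bexarotene and 5.91% for the difference between the effects. With 12 separate libraries the difference in knockout mice, the genotype difference under bexarotene and the difference between the effects were called (adjusted p = 0.00552, 0.000399 and 0.00857), and the genotype difference was also called without knockout control 5 (adjusted p = 0.0425). The adjusted p of that genotype difference ran from 0.000399 to 0.123 over the alternatives, that of the difference in knockout mice from 0.00552 to 0.444 and that of the difference between the effects from 0.00857 to 0.661.

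The balance of inhibitor to lipase transcripts followed from these values. The TPM of G0s2 over that of Pnpla2 was 0.620, 0.592 and 0.519 in treated knockout libraries, 3.55, 4.74 and 3.97 in knockout controls, 2.78, 2.30 and 5.73 in treated floxed libraries and 4.44, 4.38 and 2.60 in floxed controls. Pnpla2 exceeded G0s2 in the treated knockout libraries, while G0s2 exceeded Pnpla2 in the other 9. No test was made on this ratio.

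**Figure D3:**
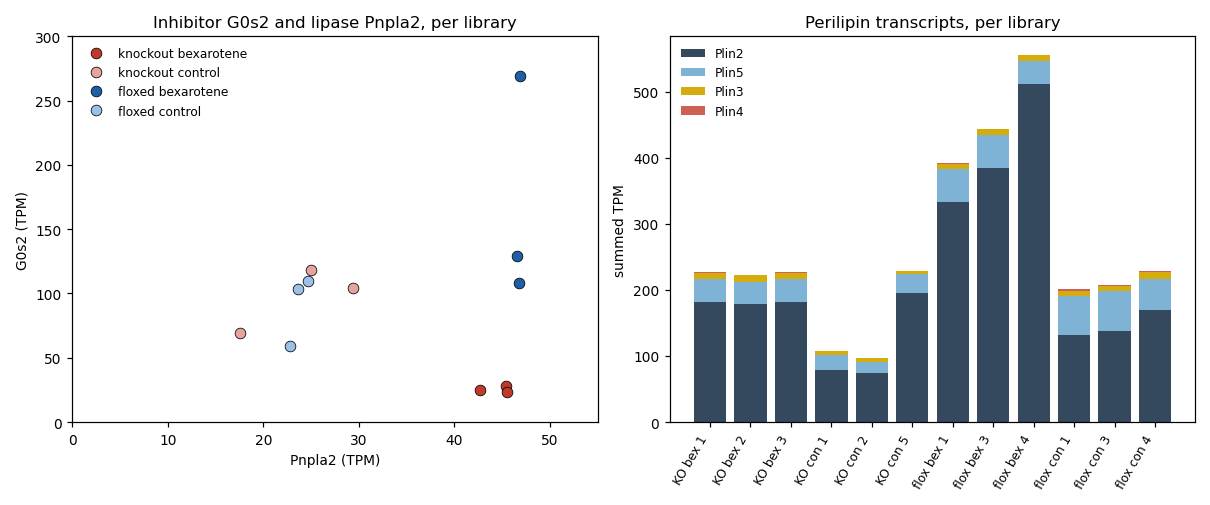
Left, G0s2 against Pnpla2 in TPM, each point a library; the treated knockout libraries lie at the lower right, with Pnpla2 at 42.7 to 45.5 and G0s2 at 23.6 to 28.2 TPM. Right, the TPM of the 4 perilipins stacked for each library (KO, knockout; flox, floxed; bex, bexarotene; con, control); the sum is 391 to 556 TPM in treated floxed libraries and no more than 229 TPM in the others.

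Pparg was lower in the knockout with or without drug and showed no rise with bexarotene. It was at 0.73, 0.77 and 1.15 TPM in treated knockout libraries, 0.86, 1.00 and 0.14 TPM in knockout controls, 4.08, 2.82 and 2.17 TPM in treated floxed libraries and 3.30, 3.17 and 2.91 TPM in floxed controls. No knockout library reached the lowest floxed library. Pparg averaged 0.667 ± 0.461 TPM in knockout controls (SD, n = 3) and 3.07 ± 0.230 TPM in floxed controls (n = 2), and the difference was -1.33 ± 0.29 (adjusted p = 0.0468, limma). The call was lost without any single sample other than knockout control 5, and also with a pseudocount of 0.1, with no filter, with quantile normalization and with the compared groups alone, and its adjusted p ran from 0.00256 to 0.243 over the alternatives. Under bexarotene the difference was -1.07 ± 0.37 (adjusted p = 0.261), and with 12 separate libraries it was called (adjusted p = 0.00853, where 14.4% of all genes were), with adjusted p from 0.00853 to 0.529 over the alternatives. Bexarotene gave 0.22 ± 0.37 in knockout mice (adjusted p = 0.919) and -0.04 ± 0.29 in floxed mice (adjusted p = 0.967). Ppara averaged 33.7 TPM in the treated knockout, 40.9 ± 10.9 TPM in knockout controls, 40.4 ± 8.27 TPM in treated floxed samples and 26.1 ± 1.85 TPM in floxed controls. Ppard, the third PPAR gene, averaged 2.27, 3.45 ± 2.44, 1.94 ± 0.1 and 7.87 ± 2.92 TPM in the same groups. Neither was called in any comparison.

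As a set, the 9 tested genes had a median log2 difference of 0.49 in knockout mice with bexarotene, where the median of all tested genes was 0.10, and none was called, against 0.517% of all genes. Unadjusted, 3 of the 9 had p under 0.05 there, against 9.17% of all genes, and 3 were called with 12 separate libraries, against 1105 of all 11018 genes. In floxed mice 4 of the 9 had an unadjusted p under 0.05, against 1692 of all 11018 genes. Between the controls 4 of the 9 did, against 1875 of all genes. The median in floxed mice was 0.34, against 0.06 for all genes. Between genotypes it was -0.39 under bexarotene, against 0.04 for all genes, and -0.53 in controls, against 0.00. Libraries did not overlap for 5 of 9 genes with bexarotene in knockout mice (28.5% of all genes) and for 5 in floxed mice (35.3%). They did not overlap for 8 between genotypes under bexarotene (42.4%) and 5 between the controls (25.3%). The treated knockout libraries were near-identical, so non-overlap with them rests on 1 sample. The 8 include Pnpla2 (-0.07 ± 0.25) and Plin5 (-0.39 ± 0.30). All of these medians and counts take in Cidec, which passed the filter only through the treated floxed libraries. They also take in Pparg and Plin4, which passed with 6 and 3 floxed libraries. Each had 2 knockout libraries at the limit, fewer than the filter asks for.

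Clock genes and markers of other cells were measured in the same libraries. With bexarotene in floxed mice 1 of 8 tested evening clock genes was called (Ciart, higher), and no clock gene was called by limma in the other comparisons. The gap between evening and morning clock genes, as a mean difference in log2(TPM + 1), was 0.654 to 0.754 in treated knockout libraries, 1.28, 1.2 and -2.06 in knockout controls 1, 2 and 5, 1.2 to 2.06 in treated floxed libraries and -1.60 to -0.968 in floxed controls. Drug and clock state cannot be told apart in floxed mice. There all 8 tested evening genes were above 0 (median 1.63), with 6 at an unadjusted p under 0.05 (limma). Between the controls all 8 were above 0 too (median 0.97), with 5 at an unadjusted p under 0.05. The 4 tested morning genes were below 0 in both comparisons (medians -1.39 and -0.49), with 2 and 0 at such a p. The part of clock state in the differences between the controls was not tested. Knockout controls 1 and 2, with a gap like that of treated floxed libraries 1 and 3, had Cidec at 0.65 and 0.10 TPM and Pnpla2 at 29.4 and 25.0 TPM. Knockout control 5, with a gap below that of the floxed controls, had Pparg at 0.14 TPM, Plin5 at 28.7 TPM and the highest Plin2 of its group. The 12 macrophage markers summed to 73.1 to 83.2 TPM in treated knockout, 16.6 to 38.3 TPM in knockout control, 20.5 to 73.7 TPM in treated floxed and 28.8 to 99.2 TPM in floxed control libraries. The sums of the knockout groups did not overlap and those of the floxed groups did. Of the 10 macrophage markers tested, 0 were called by limma in any comparison, and 5 had an unadjusted p under 0.05 with bexarotene in knockout mice, where all 10 were above 0. Stellate cell and fibroblast markers (9 genes) summed to 2.37 to 3.18 TPM in treated knockout, 2.67 to 4.33 TPM in knockout control, 0.59 to 1.38 TPM in treated floxed and 0.65 to 1.84 TPM in floxed control libraries. Neutrophil markers (6 genes) summed to 8.04 to 10.3, 11.9 to 37.6, 5.42 to 13.4 and 16.2 to 55.1 TPM in the same groups, and endothelial, lymphocyte and cholangiocyte markers to no more than 26.3, 6.35 and 4.73 TPM. Their part in the differences of Plin2, Plin3 and Pparg, which macrophages also express, was not tested.

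**Figure D4:**
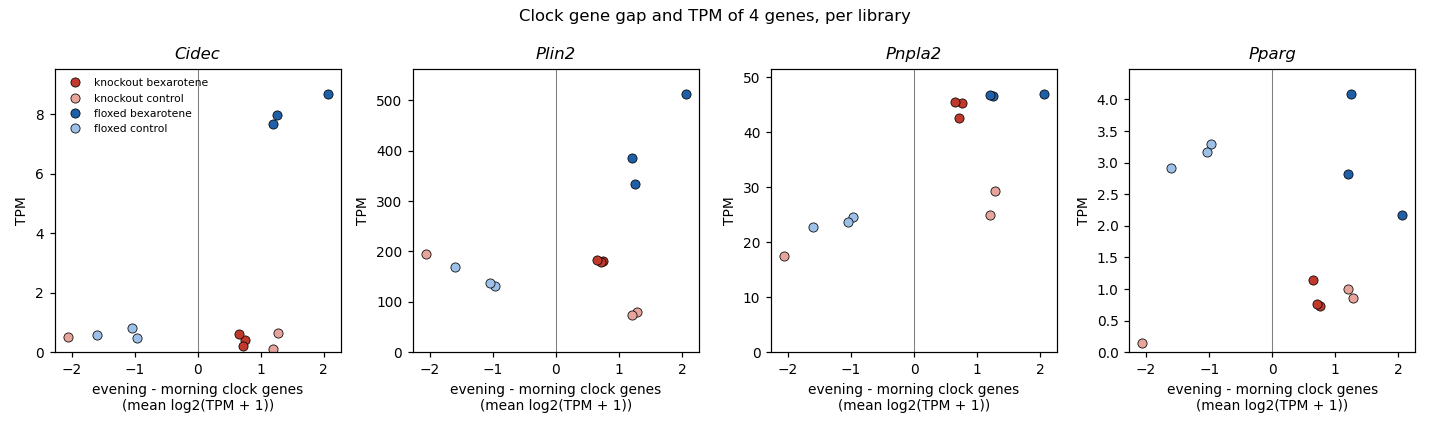
TPM of Cidec, Plin2, Pnpla2 and Pparg (y axes) against the gap between evening and morning clock genes (x axis, mean log2(TPM + 1)), each point a library coloured by group. The floxed controls and knockout control 5 lie at gaps of -2.06 to -0.968 and the other 8 libraries at 0.654 to 2.06; Cidec is above 0.83 TPM in the treated floxed libraries alone.

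Of 8 tested lipolysis genes, 1 rose with bexarotene in knockout mice (median 0.14), where 0.517% of all genes were called, and 1 in floxed mice (median 0.28), where 2.12% were. Between genotypes 3 fell under bexarotene (median -0.55), where 1.93% of all genes were called, and 2 fell in controls (median -0.15), where 3.76% were. These shares of all genes are the background of the lists that follow too. Mgll, which encodes the lipase of the last step, monoacylglycerol hydrolysis, averaged 72.2 ± 4.67 TPM in treated floxed samples and 34.2 ± 6.92 TPM in floxed controls (1.07 ± 0.14, adjusted p = 0.0106). Mgll averaged 36.2 TPM in the treated knockout and 30.1 ± 0.971 TPM in knockout controls (0.26 ± 0.18, adjusted p = 0.772). Ces1g, a carboxylesterase, was at 113, 110 and 113 TPM in treated knockout libraries, against 27.3, 22.1 and 19.1 TPM in knockout controls (2.26 ± 0.20, adjusted p = 0.00269). In floxed mice Ces1g was at 218, 231 and 253 TPM in treated libraries and 168, 182 and 175 TPM in controls. Every floxed library thus stood above every treated knockout library. Between the controls Ces1g differed by -2.90 ± 0.16 (adjusted p = 5.77e-05, limma). The effect of bexarotene on Ces1g in knockout minus that in floxed mice was 1.85 ± 0.25. Ces1d, a triglyceride hydrolase of the endoplasmic reticulum, averaged 372 ± 63.9 TPM in knockout controls and 675 ± 94.0 TPM in floxed controls (-0.86 ± 0.17, adjusted p = 0.0342). The carboxylesterase genes are close copies, so reads may be split among them.

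Of 12 genes of droplet assembly, 0 were called by limma with bexarotene in either genotype, with medians of -0.03 in knockout and 0.13 in floxed mice and with 1 and 3 genes at an unadjusted p under 0.05. Fitm1, which helps to bud droplets from the endoplasmic reticulum, was at 0.00, 0.36 and 0.08 TPM in treated knockout libraries, against 12.5, 15.3 and 11.8 TPM in treated floxed libraries. It was at 0.00, 0.00 and 0.15 TPM in knockout controls, against 19.3, 22.4 and 12.3 TPM in floxed controls. The genotypes did not overlap with or without drug (-3.62 ± 0.29, adjusted p = 0.00098, and -4.02 ± 0.23, adjusted p = 6.76e-05). Fitm1 passed the filter only through the 6 floxed libraries and so had to differ; with no filter the adjusted p were 0.000956 and 0.00272. Fitm1 was the 1 called gene of the list under bexarotene, and in knockout controls Fitm1 fell while Ldah, a hydrolase of the droplet surface, rose against floxed controls (the difference of Ldah was 0.70 ± 0.14, adjusted p = 0.0312).

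Of 8 other droplet enzymes, 0 were called by limma with bexarotene in either genotype, with medians of 0.03 in knockout and 0.26 in floxed mice and with 1 and 3 genes at an unadjusted p under 0.05. Hsd17b11, a droplet short-chain dehydrogenase, was at 54.0, 54.9 and 55.9 TPM in treated knockout libraries, against 186, 188 and 174 TPM in treated floxed libraries (-1.71 ± 0.21, adjusted p = 0.00598). It was at 67.4, 59.7 and 46.7 TPM in knockout controls, against 115, 120 and 102 TPM in floxed controls (-0.92 ± 0.16, adjusted p = 0.0206). Nsdhl and Sqle, enzymes of cholesterol synthesis found on droplets, rose in knockout controls (0.92 ± 0.18 and 1.77 ± 0.36, adjusted p = 0.0308 and 0.0331).

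Of 11 tested genes known as PPARγ targets in fatty liver or adipose tissue, 4 fell in knockout controls, where 3.76% of all genes were called (median -0.82, against 0.00 for all genes). They were Lpl, Scd1, Mogat1 and Cd36. Mogat1, a monoacylglycerol acyltransferase, was at 0.00 TPM in every knockout control, against 0.88, 0.65 and 1.31 TPM in floxed controls (-1.01 ± 0.20, adjusted p = 0.0291). Mogat1 and Lpl passed the filter only through floxed libraries and so had to differ, and with no filter their adjusted p were 0.0495 and 0.00525. Slc27a1 also passed only through floxed libraries. It was at 0.61, 0.54 and 0.27 TPM in knockout controls, against 1.40, 1.81 and 1.58 TPM in floxed controls. The median of -0.82 takes in Mogat1, Lpl and Slc27a1, which the filter favoured as lower in the knockout. Cd36, a fatty acid uptake protein, was at 0.37, 0.65 and 0.69 TPM in knockout controls, against 4.39, 4.45 and 3.91 TPM in floxed controls (-1.72 ± 0.38, adjusted p = 0.0493). With no filter the calls of Cd36 and Scd1 were lost (adjusted p = 0.177 and 0.158). Unlike Pparg, Cd36 was higher with bexarotene in each genotype, at 6.81, 6.55 and 6.82 TPM in treated knockout libraries and 11.99, 10.55 and 30.13 TPM in treated floxed libraries. Neither effect was called (2.31 ± 0.48, adjusted p = 0.112, and 1.70 ± 0.38, adjusted p = 0.0703). Bexarotene in knockout mice gave a median of 0.67 over this list, with Scd1 called (0.517% of all genes), and in floxed mice a median of 0.24, with Acsl1 called higher and Lpl lower (2.12% of all genes). The call of Lpl was lost with no filter (adjusted p = 0.0627). Acsl1, a fatty acid activating enzyme, was also the 1 called gene of the list between genotypes under bexarotene (-1.49 ± 0.16, adjusted p = 0.00298) and in the difference between the effects (-1.68 ± 0.20, adjusted p = 0.0227). Of 12 tested genes for PPARs, RXRs and their partners, 0 were called by limma with bexarotene in either genotype (0 in knockout and 2 in floxed mice at an unadjusted p under 0.05), Rxra fell between genotypes under bexarotene, and Rxra and Pparg fell between the controls.

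The genes most like Cidec and Pparg were sought among 6100 tested genes with a mean of at least 5 TPM, by the mean absolute difference of centred log2(TPM + 1) over the 9 samples. For Cidec the nearest was the carnitine transporter gene Slc22a5 (0.226), with means of 7.66 TPM in the treated knockout, 4.11 TPM in knockout controls, 30.6 TPM in treated floxed samples and 5.22 TPM in floxed controls. Tmem141 (0.300) and Sulf2 (0.353) followed. For Pparg the nearest was Fabp1, the liver fatty acid binding protein (0.162), with means of 3334, 2641, 7817 and 6781 TPM in the same groups. Gpr108 (0.212) and Gpx1 (0.218) followed.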

How the data were processed

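RNA of hepatocytes was extracted with TRIzol and made into stranded mRNA libraries with an Illumina kit, per the labels' protocols. Per the submitters' processing notes the authors used fastp, HISAT2 and StringTie, with no versions given; neither genome build nor use of strand is stated. Levels were deposited by the authors as TPM for 26748 Ensembl gene identifiers, of which 21810 were given a symbol from GENCODE M21. The 12 columns were assigned to groups by name only. TPM keeps no depth, so no counting error can be given.

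To find near-identical libraries, genes from 10 TPM upward were put into 20 classes by TPM times transcript length, and the share of each pair's log2 difference that did not shrink with this product was kept. Libraries under 0.1 log2 apart were averaged, which left 9 samples. Genes reaching 1 TPM in 3 or more libraries were fitted as log2(TPM + 1) over the 4 groups with limma 3.58.1 in R 4.3.3 (eBayes with a trend; 5 residual and 3.22 prior degrees of freedom), and p-values were adjusted by Benjamini-Hochberg over 11018 genes. The log2(TPM + 1) scale understates changes of low genes. The fits were tested on simulated data. The 10 genes, the related gene lists and the averaging limit were chosen with earlier results of these data known. From each list the called members with the smallest adjusted p, up to 4, could be named. Alternatives were separate libraries, a pseudocount of 0.1, no filter or one of 5 TPM, quantile normalization, the compared groups alone and leaving out each sample. Promoter sequences came from RefSeq (GRCm38.p6). Where other list members are not given values, they are only counted.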

Additional observations from a re-analysis of the deposited data

Results flagged for a closer look

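The response of Cidec to bexarotene differed between the genotypes by the test of that difference (-2.48 on the log2(TPM + 1) scale, knockout effect minus floxed effect, adjusted p = 0.0368, limma). Cidec entered the test only through the treated floxed libraries, the value rests on 1 treated knockout sample, and the call was lost in 7 of the alternatives, with adjusted p from 0.000353 to 0.290. With no filter on low values the adjusted p was 0.01. The responses of Plin4 ran in opposite directions, with every treated library above the controls in the knockout and below them in floxed mice (1.08 on the same scale). That difference did not pass the test (adjusted p = 0.362), and Plin4 was at no more than 2.03 TPM.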

How the results depend on the processing

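Of 611 comparisons of a single gene's log2 difference under another setting, 556 stayed on their side of the threshold. These 556 kept their direction too, or were uncalled and changed sign by a shift no larger than the SE. Another 17 passed the threshold only under the alternative, and 35 lost their call. The last 3 were uncalled values that changed sign by a shift larger than the SE. They moved to 0.15 for Plin3 in floxed mice and -0.16 for G0s2 between the controls, both without floxed control 4. Cidec in knockout mice moved to -0.50 with quantile normalization. No called value changed sign. All genes called numbered 57 for bexarotene in knockout mice, 234 in floxed mice, 213 for knockout against floxed under bexarotene, 414 in controls and 22 for the difference between the effects. With 12 separate libraries these were 1105, 1062, 1589, 1302 and 651, and with no filter on low values 875, 140, 1041, 231 and 689. With the compared groups alone they were 6 in knockout mice, 614 in floxed mice and 158 between the controls. Leaving out each sample in turn gave 22 to 249, 43 to 553, 103 to 435, 100 to 761 and 6 to 210 in that order, highest without knockout control 5 each time. Without floxed controls 1 and 3 they included 65 in floxed mice and 13 for the difference between the effects, and without floxed control 4 they included 101 between the controls. The treated knockout sample could not be left out, being the only sample of its group.

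Of the 9 tested genes, 0, 2, 1, 2 and 1 were called in the same order by limma. With 12 separate libraries 3, 4, 4, 4 and 4 were called. In floxed mice 1 was called with a pseudocount of 0.1, with no filter and with quantile normalization. Between the controls 1 was called with a pseudocount of 0.1, with at least 5 TPM and with quantile normalization, and 0 with no filter or with the compared groups alone. For the difference between the effects 0 were called with a pseudocount of 0.1 or at least 5 TPM. Leaving out each sample gave 0 to 0, 1 to 3, 1 to 2, 0 to 3 and 0 to 1. Quantile normalization made 69.8% of calls in knockout mice higher in place of 80.7%, and 76.8% in floxed mice in place of 86.8%. No paired analysis was possible because the column numbers differ from the replicate numbers in the titles, so no column could be tied to a numbered sample.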
